A study of Schizosaccharomyces pombe with 12 samples.

Results

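The 9 genes described here encode the proteins that bind and cap chromosome ends in the fission yeast *Schizosaccharomyces pombe*. They are the shelterin genes *taz1* (SPAC16A10.07c), *rap1* (SPBC1778.02), *poz1* (SPAC19G12.13c), *tpz1* (SPAC6F6.16c), *pot1* (SPAC26H5.06) and *ccq1* (SPCC188.07), the telomere-bound regulator *rif1* (SPAC6F6.17), and the capping genes *stn1* (SPBC409.12c) and *ten1* (SPCC1393.14). They were listed by gene name for their known roles, with earlier results of these data known, out of 7004 genes with read counts, and all 9 were counted in each of 12 libraries. The study removed Thc1 or Bmc1, proteins associated with the telomerase RNA TER1, and sequenced total RNA depleted of ribosomal RNA from cells in log phase.

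There were 4 groups of 3 libraries. The *thc1* wild type was an h- strain with the alleles *ade6-M216*, *leu1-32*, *ura4-D18* and *his3-D1*, and *thc1*Δ was made from that strain by putting *his3* in place of *thc1*. The *bmc1* wild type was an h+ strain with *leu1-32*, *ura4-D18*, *his3-D1* and an *ade6* allele listed as *M210* or *M216*. The *bmc1*Δ strain had the same markers with *bmc1* replaced by *natMX6*, and came from spores of a heterozygous diploid. All groups thus shared *leu1-32*, *ura4-D18* and *his3-D1*, and each was a single strain. The 2 wild types differed in mating type, may have differed in the *ade6* allele, and were listed as controls for different deletions. Effects of these differences cannot be told apart. The study pooled the libraries of all groups and sequenced them on the same flow cell. The sources used here do not say whether the cultures of all groups were grown together. A deletion and its listed wild type are called an experiment here.

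Shelterin links the double-stranded telomeric repeats to the single-stranded overhang at the chromosome end. Taz1 binds the double strand, Pot1 binds the overhang, and Rap1, Poz1 and Tpz1 connect them, while Ccq1 brings in telomerase through its subunit Est1. Stn1 and Ten1 form a second capping complex that protects the end and favours synthesis of the complementary strand, and Rif1 limits telomere elongation and holds back origins of replication.

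Library totals ranged from 33.57 to 40.33 M reads. Replicate 1 of *thc1*Δ stood apart from its 2 partners, since the chi-square between replicates, divided by its degrees of freedom, was 68.9 and 65.5 for its pairs and 2.95 to 39.6 for the others. The value between its 2 partners was 20.8. Replicate 1 also stood apart in *bmc1*Δ (34.4 and 39.6, against 6.75) and in the *bmc1* wild type (29.6 and 38.5, against 13.7). In *thc1*Δ the reads of *thc1* fell from 50.5 to 20.5 CPM (counts in every 1000000 of a library, with totals scaled by the trimmed mean of M values, TMM), and those of the marker *his3* rose from 17.7 to 44.9 CPM. In *bmc1*Δ the reads of *bmc1* fell from 25.5 to 15.8 CPM. A table of counts per gene does not show where in a deleted gene the remaining reads lay. The study checked both deletions by PCR and reported from coverage tracks that reads were absent at the deleted loci. Of 7 mating-type genes, 3 differed between the wild types (*mfm2* and *map1* lower and *map3* higher in the h+ strain), where 41.4% of all genes did, and the h- genes *mam2* (5.17 and 5.31 CPM) and *mfm3* (1.33 and 1.28 CPM) did not pass the test. The h- gene *mfm2* was at 20.6, 22.7 and 22.8 CPM in the *thc1* wild type and at 2.06, 8.63 and 1.54 CPM in the *bmc1* wild type (log2 difference -2.40, and -3.61 without *bmc1* wild-type replicate 2). In *thc1*Δ *mfm2* was at 13.9, 15.2 and 17.2 CPM and in *bmc1*Δ at 13.6, 1.93 and 1.85 CPM, so that replicate 1 of *bmc1*Δ lay near the h- strains. The remaining genes, *mfm1* (log2 difference between the wild types -0.92, adjusted *p* = 0.0675 by edgeR) and *map2* (-0.22, adjusted *p* = 0.0676), did not pass. The mating-type genes therefore did not mark every library by its listed mating type.

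The members spanned a wide range of levels. Per kilobase of exon, over all 12 libraries, *rif1* was highest at 63.7 ± 2.95 CPM (SD, n = 12), above the median of 40.7 CPM per kilobase over 4998 coding genes, and the other 8 lay below that median. *taz1* (33.3 ± 1.92) and *ccq1* (32.9 ± 1.57) followed, with library ranges that overlapped, and then *tpz1* (25.9 ± 0.875). The levels of *pot1* (17.6 ± 0.882), *rap1* (14.4 ± 1.19), *stn1* (14.0 ± 0.673) and *poz1* (13.5 ± 0.916) were neighbours in this order whose ranges overlapped. *ten1* was lowest at 5.38 ± 1.96 CPM per kilobase, at the 5.5th percentile of coding genes, and its range met that of no other member. The order rests on gene length. With the coding length in place of the exon length, an alternative chosen after seeing the data, *poz1* rose from rank 8 to rank 3 (39.5 CPM per kilobase) and *tpz1* from 4 to 2 (52.7), while *rif1* stayed first (67.2) and *ten1* last (6.44).

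**Figure D1:**
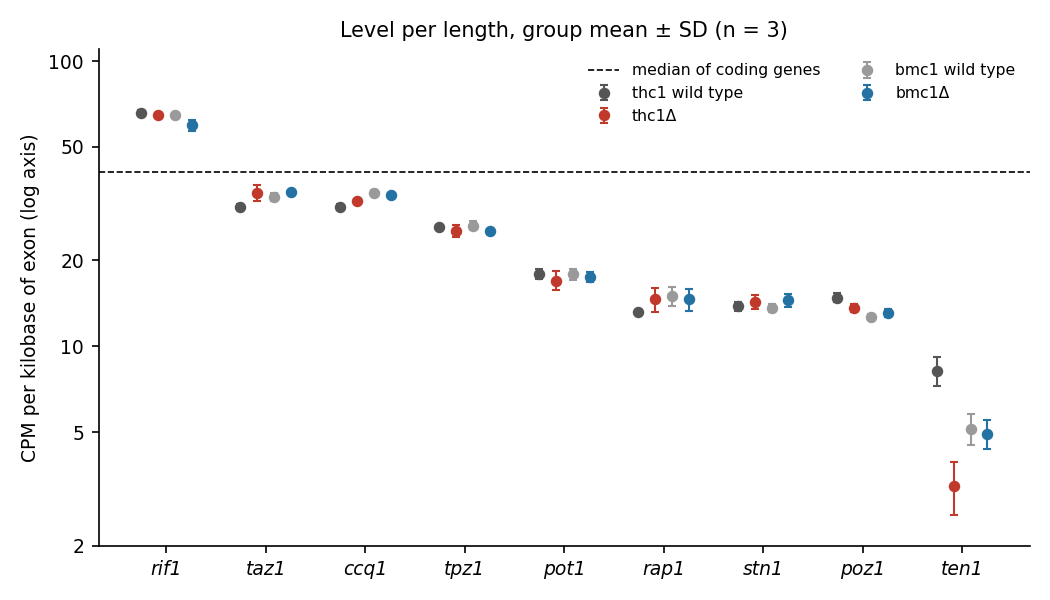
Level of each gene in CPM per kilobase of exon on a log axis, as the mean ± SD of 3 libraries for each of the 4 groups, with the median of coding genes as a dashed line. *rif1*, at 63.7 on average, is the only gene above the line at 40.7, and *ten1*, at 5.38, is both the lowest and the one whose groups lie farthest apart.

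Taz1, the protein on the double-stranded repeats, was encoded by a transcript of 67.7, 70.3 and 69.4 CPM in the *thc1* wild type and of 71.4, 79.4 and 80.8 CPM in *thc1*Δ. The deletion libraries all lay above the wild-type libraries. In the quasi-likelihood test of edgeR, with the adjustment of Benjamini and Hochberg over all genes tested, the log2 change of *taz1* was 0.16 ± 0.0518 (SE, n = 3 per group), and it did not pass an adjusted *p* of 0.05 (adjusted *p* = 0.0678). In the *bmc1* experiment *taz1* stood at 77.0, 75.3 and 72.4 CPM in the wild type and at 77.1, 78.5 and 77.3 CPM in *bmc1*Δ. These groups lay next to each other without overlap and differed by 0.05 on the log2 scale (adjusted *p* = 0.806). The exact permutation test, two-sided, gives no *p* below 0.1 for 3 libraries against 3, and it gave that value for each pair of groups described here as not overlapping. Since the values are shares of the reads of bulk cultures, fewer cells with a transcript and less of it per cell cannot be told apart.

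Rap1, which joins the complex through Taz1, was read at 30.0, 30.8 and 30.4 CPM in the *thc1* wild type. In *thc1*Δ it was at 30.0 CPM in replicate 1 and at 35.1 and 35.8 CPM in replicates 2 and 3. The groups overlapped through that first library, and the log2 change was 0.14 ± 0.0706 (adjusted *p* = 0.184). The *bmc1* wild type had *rap1* at 37.6, 33.3 and 32.8 CPM, and in *bmc1*Δ at 36.0, 30.3 and 34.3 CPM. Here the wild-type and deletion libraries were interleaved (log2 change -0.05 ± 0.0825, adjusted *p* = 0.92). The ratio of *taz1* to *rap1* per kilobase stayed between 2.10 and 2.66 in the 12 libraries.

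Poz1, the bridge between Rap1 and Tpz1, was at 33.6, 32.5 and 31.2 CPM in the *thc1* wild type and at 30.4, 28.7 and 30.4 CPM in *thc1*Δ. All 3 deletion libraries were below the wild type, with a log2 change of -0.12 ± 0.0462 (adjusted *p* = 0.0963). The *bmc1* wild type had 27.5, 27.4 and 28.4 CPM and *bmc1*Δ 27.6, 29.6 and 28.7 CPM, which overlapped (log2 change 0.04, adjusted *p* = 0.875). The *poz1* gene shares 1327 nt, 60.6% of its exons, with *dlp1* on the other strand, and *dlp1* was at 39.2 ± 0.463 CPM in the *thc1* wild type and 39.8 ± 1.24 CPM in *thc1*Δ (SD, n = 3).

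Tpz1, the partner of Pot1 at the centre of shelterin, was among the steadiest members, with a spread of log2 CPM over the 12 libraries that exceeded that of only 6.31% of 6279 genes. It stood at 80.8, 81.3 and 82.4 CPM in the *thc1* wild type and at 81.3, 81.5 and 74.3 CPM in *thc1*Δ. In the *bmc1* wild type it was at 84.2, 84.0 and 78.9 CPM and in *bmc1*Δ at 80.5, 78.0 and 79.0 CPM. In both experiments the groups overlapped, with log2 changes of -0.05 ± 0.0435 (adjusted *p* = 0.465) and -0.06 ± 0.0412 (adjusted *p* = 0.758).

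Pot1, the protein on the single-stranded overhang, had 55.4, 51.4 and 54.8 CPM in the *thc1* wild type and 55.0, 51.2 and 47.1 CPM in *thc1*Δ. Its levels in the *bmc1* experiment were 56.8, 52.6 and 52.5 CPM in the wild type and 52.7, 54.8 and 50.7 CPM in *bmc1*Δ. The groups overlapped in both experiments, and the log2 changes were -0.08 ± 0.0596 (adjusted *p* = 0.376) and -0.04 ± 0.0499 (adjusted *p* = 0.879). The ratio of *tpz1* to *pot1* per kilobase lay between 1.38 and 1.55 in every library, the narrowest range of the 5 ratios computed between members.

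Ccq1, which recruits telomerase, was encoded by a transcript of 79.0, 76.8 and 79.4 CPM in the *thc1* wild type and of 81.2, 82.2 and 83.1 CPM in *thc1*Δ. The 3 deletion libraries all lay higher, by a margin of 0.06 ± 0.032 on the log2 scale that did not pass the test (adjusted *p* = 0.192). The *bmc1* wild type had 87.3, 90.1 and 85.9 CPM and *bmc1*Δ 87.7, 85.3 and 84.6 CPM, with overlap between the groups (log2 change -0.04, adjusted *p* = 0.849).

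Rif1, the most abundant of the 9 transcripts, stood at 294, 287 and 297 CPM in the *thc1* wild type and at 291, 289 and 278 CPM in *thc1*Δ, and the groups overlapped (log2 change -0.04 ± 0.0367, adjusted *p* = 0.53). In the *bmc1* wild type it was at 285, 293 and 284 CPM. In *bmc1*Δ it was at 251, 270.0 and 271 CPM, below each wild-type library. This difference of -0.13 ± 0.0448 on the log2 scale had an unadjusted *p* of 0.0256 and an adjusted *p* of 0.636. With the replicate number as a block, the adjusted *p* was 0.0591, though it is not settled that the numbers pair the libraries. *rif1* and *tpz1* lie head to head, 368 nt apart on chromosome I.

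Within *rif1*, and on its other strand, lies the non-coding RNA SPNCRNA.852, which covers 1398 nt, 31.5% of the *rif1* exon. It had 63, 63 and 65 reads in the *thc1* wild type and 27, 27 and 44 in *thc1*Δ, all below the wild type. The log2 change of SPNCRNA.852 was -0.91 ± 0.188 (adjusted *p* = 0.0134), where 21.1% of genes passed. Among other genes beside members, *coq9* and *its3* next to *poz1* and *etf2* next to *rif1* passed too (adjusted *p* = 0.0151, 0.0305 and 0.00535). SPNCRNA.852 had 33, 52 and 51 reads in the *bmc1* wild type, and in *bmc1*Δ 27, 35 and 38 reads. The wild types differed by -0.50 on the log2 scale (adjusted *p* = 0.0419), where 41.4% of genes passed. The reads in *thc1*Δ overlapped those in the *bmc1* wild type. The sense gene *rif1* did not pass the test in either comparison that this antisense RNA passed. Per kilobase SPNCRNA.852 stood at 0.538 to 1.23 CPM over the 12 libraries, where *rif1* stood at 56.6 to 67.1 CPM. Whether some of these few reads came from the strand of *rif1* was not tested.

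**Figure D2:**
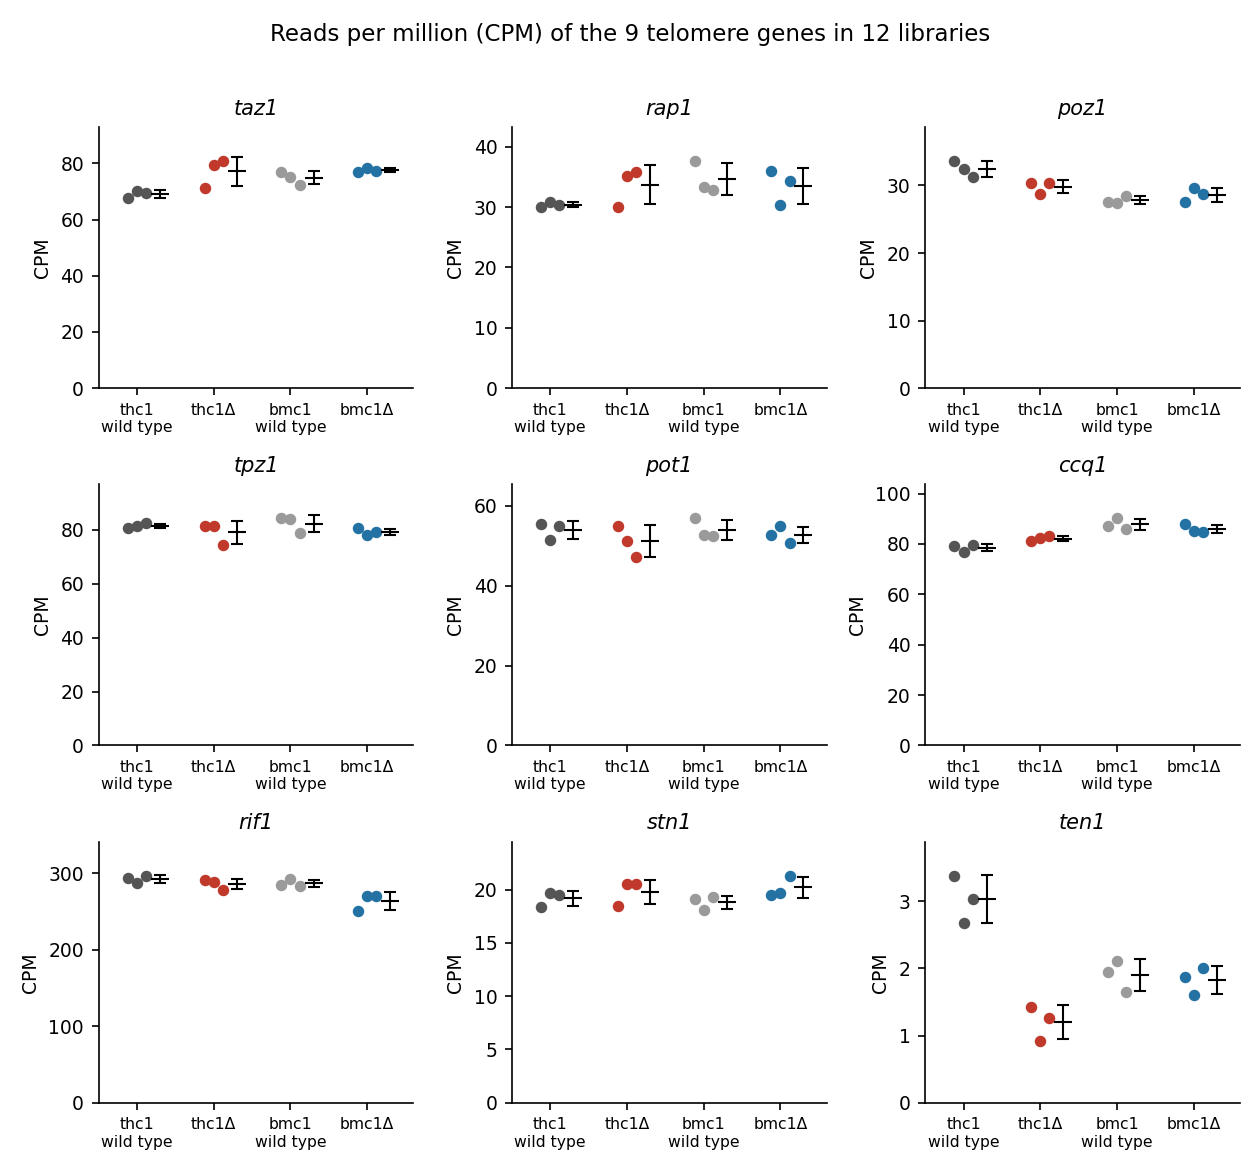
CPM of each of the 9 genes in every library, with a point for each of 3 replicates per group, in order of replicate number, and the group mean ± SD beside them. Each vertical axis starts at 0. *ten1* falls from 3.03 CPM in the *thc1* wild type to 1.20 CPM in *thc1*Δ, with both *bmc1* groups between them, whereas the points of the other 8 genes lie close together.

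Stn1 was encoded by a transcript of 18.4, 19.7 and 19.5 CPM in the *thc1* wild type and of 18.5, 20.5 and 20.5 CPM in *thc1*Δ, with overlap (log2 change 0.04 ± 0.0633, adjusted *p* = 0.652). Its levels were 19.1, 18.1 and 19.3 CPM in the *bmc1* wild type and 19.5, 19.7 and 21.3 CPM in *bmc1*Δ. All 3 *bmc1*Δ libraries were above their wild type, by 0.09 ± 0.0593 on the log2 scale, which did not pass the test (adjusted *p* = 0.732).

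Ten1, the partner of Stn1, was encoded by the one member that passed the test after a deletion in the fit of 6 libraries. *ten1* had 127, 98 and 115 reads in the *thc1* wild type, or 3.38, 2.67 and 3.03 CPM. In *thc1*Δ it had 49, 33 and 47 reads, or 1.42, 0.923 and 1.26 CPM, so that every *thc1*Δ library held fewer than the lowest wild-type library. The level fell to 39.6% of the wild type, with a 95% confidence interval of 30.0% to 52.1%, a log2 change of -1.34 ± 0.173 (SE, n = 3 per group, adjusted *p* = 0.00171). The change lay between -1.47 and -1.18 with each of the 6 libraries left out in turn, and the adjusted *p* was then at most 0.0124.

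*ten1* in the *bmc1* experiment showed no such difference. It had 69, 85 and 61 reads in the *bmc1* wild type and 67, 54 and 73 reads in *bmc1*Δ, which overlapped (log2 change -0.06 ± 0.154, adjusted *p* = 0.946, 95% interval 74.6% to 123% of the wild type). The effects of the 2 deletions on *ten1* differed by -1.28 ± 0.238 on the log2 scale (adjusted *p* = 0.00653, n = 12 libraries). The 2 wild types differed as well, since the *bmc1* wild type held 63.0% of the *ten1* level of the *thc1* wild type (log2 difference -0.67 ± 0.141, adjusted *p* = 0.00619). Set against the *bmc1* wild type instead, the *thc1*Δ libraries were again all lower, but the log2 difference was -0.67 ± 0.194 and missed the threshold (adjusted *p* = 0.0551). The call for *ten1* in *thc1*Δ is thus one against the 3 libraries of the *thc1* wild type, the highest 3 of the 12.

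The counts of *ten1* are small. Its replicates spread by 11.7% of the mean in the *thc1* wild type and by 21.0% in *thc1*Δ, where counting error alone gives 9.39% and 15.2%. The other 8 members had between 641 and 11779 reads in a library. The ratio of *stn1* to *ten1* per kilobase was 1.71 ± 0.259 in the *thc1* wild type, 4.57 ± 1.23 in *thc1*Δ, 2.67 ± 0.414 in the *bmc1* wild type and 2.95 ± 0.266 in *bmc1*Δ (SD, n = 3).

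*ten1* is a gene of 1 exon of 370 nt on the minus strand of chromosome III (chrIII:819849-820218 in the assembly ASM294v3, of which 309 nt are coding). It converges with *ctr4*, which encodes a subunit of the copper transporter and ends 487 nt away on the plus strand. The study had listed *ctr4* among the genes raised more than 2-fold in *thc1*Δ. *ctr4* had 5037, 5085 and 4958 reads in the *thc1* wild type and 19477, 24476 and 23375 in *thc1*Δ, so that it was higher where *ten1* was lower (log2 change of *ctr4* 2.21 ± 0.0742, adjusted *p* = 3.54e-06). In the *bmc1* wild type *ctr4* had 21517, 21103 and 20003 reads, a log2 difference of 2.05 from the *thc1* wild type, and in *bmc1*Δ 22518, 19262 and 18992 reads. Between *thc1*Δ and the *bmc1* wild type, where *ten1* differed by -0.67 on the log2 scale, *ctr4* differed by 0.16 (adjusted *p* = 0.245) with overlapping libraries. The non-coding RNA SPNCRNA.7043, which the annotation places over 100% of *ten1* on the strand of *ctr4*, was not among the genes counted. Uncounted non-coding RNAs also lie opposite *taz1*, *rap1*, *tpz1*, *ccq1*, *poz1*, *rif1* and *stn1*, such as SPNCRNA.3385 over 48.8% of *taz1*. The part of *ctr4* or of opposite-strand transcription in the level of *ten1* was not tested.

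**Figure D3:**
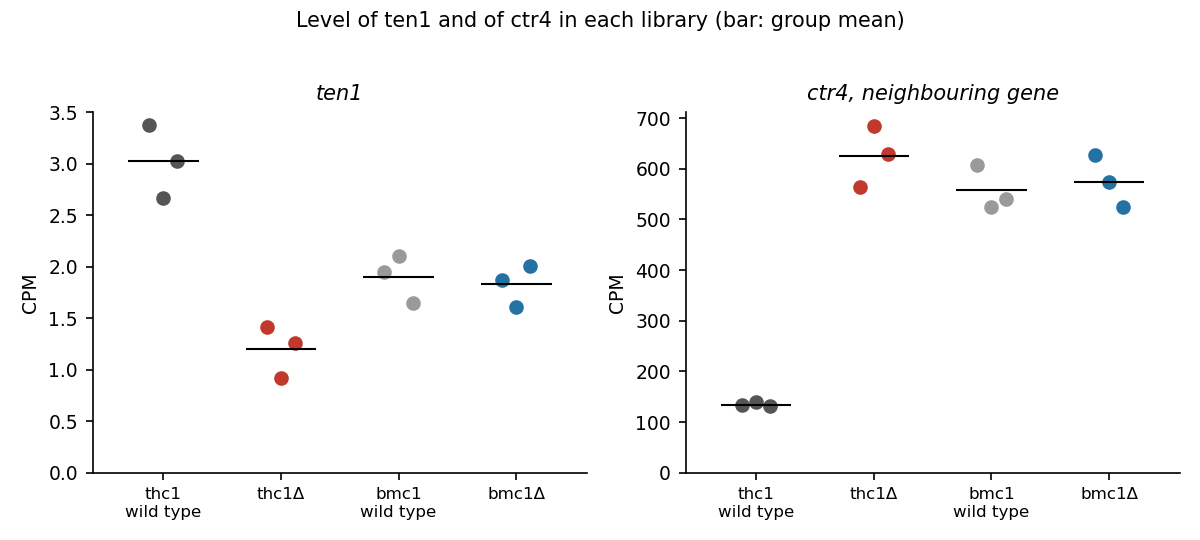
CPM of *ten1* (left) and of its convergent neighbour *ctr4* (right) in each library, with a bar at the mean of the 3 libraries of a group and both axes from 0. The *thc1* wild type is the highest group for *ten1* at 3.03 CPM and the lowest for *ctr4* at 135 CPM, and *thc1*Δ is the lowest for *ten1* at 1.20 CPM.

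Counted over the members, 1 of 9 passed an adjusted *p* of 0.05 in *thc1*Δ, namely *ten1*, where 21.1% of 6235 genes tested did. *ten1* also passed the limit of a 2-fold change, as did 1.20% of genes. In 4 members (*ccq1*, *poz1*, *taz1* and *ten1*) the libraries of *thc1*Δ and its wild type did not overlap, a feature of 40.9% of genes. The 95% intervals of the 8 other members all lay between 85.3% and 124% of the wild type. The median size of a log2 change was 0.08 over the members and 0.10 over all genes.

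The count in *thc1*Δ turned on replicate 1, whose pairs had the highest chi-square values between replicates. Without it 5 members passed, where 40.9% of 6260 genes did. *taz1* (log2 change 0.21, adjusted *p* = 0.000388) and *rap1* (0.22, adjusted *p* = 0.00123) were then higher, *pot1* (-0.14, adjusted *p* = 0.0411) and *poz1* (-0.14, adjusted *p* = 0.0415) lower beside *ten1*, and the count over all genes rose from 1313 to 2562. With each of the other 5 libraries left out in turn, 1 member passed, and the count over all genes was as low as 578. A fit over all 12 libraries called 2 members, *taz1* with an adjusted *p* of 0.0298 and *ten1*, where 19.0% of 6279 genes passed. Against the *bmc1* wild type 0 of 9 passed, where 13.5% of genes did, and the values of *rap1* (-0.04), *ccq1* (-0.10) and *poz1* (0.10) had the opposite sign.

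**Figure D4:**
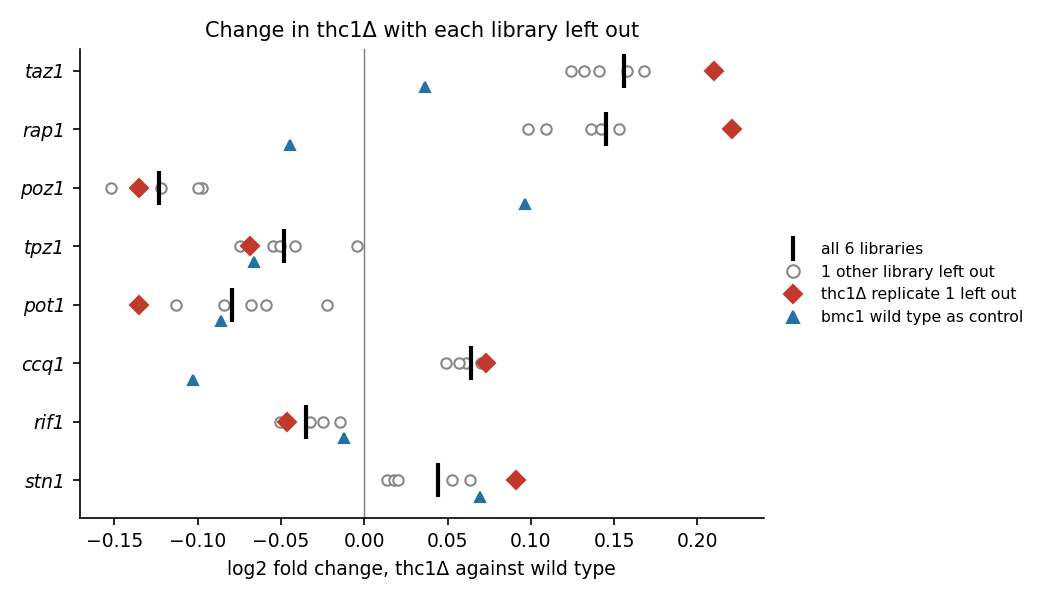
Log2 fold change in *thc1*Δ for the 8 members other than *ten1*, from all 6 libraries (black bar), with 1 library left out (circles), without *thc1*Δ replicate 1 (red diamonds) and against the other wild type (blue triangles). Without replicate 1 *taz1* and *rap1* reach 0.21 and 0.22, and against the other wild type *rap1*, *poz1* and *ccq1* move across 0.

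None of the 9 members passed in *bmc1*Δ, where 0.0481% of 6232 genes did, and 0% also reached a 2-fold change. At an unadjusted *p* below 0.05 there were 478 genes, of which 1 member, *rif1*. DESeq2 called 28 genes and the fit with the replicate block 200 genes (3.21%), in both cases with 0 members. The libraries did not overlap for 3 members (*rif1*, *stn1* and *taz1*), as for 14.4% of genes. The 95% intervals of the 8 members other than *ten1* ran from 84.6% to 118% of the wild type, and the median size of a log2 change was 0.05 over the members and 0.06 over all genes. Against the *thc1* wild type 5 of 9 members of *bmc1*Δ passed, where 38.1% of genes did. *taz1* (log2 difference 0.17) and *ccq1* (0.13) were then higher, and *poz1* (-0.18), *rif1* (-0.15) and *ten1* (-0.73) lower.

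The 2 wild types differed in 5 of 9 members, where 41.4% of 6232 genes passed. *taz1* (log2 difference 0.12 ± 0.0342, adjusted *p* = 0.0239), *rap1* (0.19 ± 0.0563, adjusted *p* = 0.0271) and *ccq1* (0.17 ± 0.0326, adjusted *p* = 0.00442) were higher. *poz1* (-0.22 ± 0.046, adjusted *p* = 0.00577) and *ten1* were lower. The libraries of the 2 wild types did not overlap for these same 5 members, as for 57.3% of genes, and 0 of 9 reached the 2-fold limit, as 2.81% of genes did. *pot1*, *tpz1*, *rif1* and *stn1* differed by 0.01, 0.02, -0.02 and -0.03. The calls of *taz1* and *rap1* were lost without any 1 of the *thc1* wild-type libraries (adjusted *p* up to 0.104 and 0.0921), and that of *taz1* also without *bmc1* wild-type replicate 2 (0.0593), whereas those of *ccq1*, *poz1* and *ten1* were kept with each library left out. In the fit over all 12 libraries 3 members passed, where 33.0% of genes did, and *taz1* (adjusted *p* = 0.0674) and *rap1* (0.094) did not. *taz1* also missed the threshold by DESeq2 (0.0546) and with the replicate block (0.054).

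**Figure D5:**
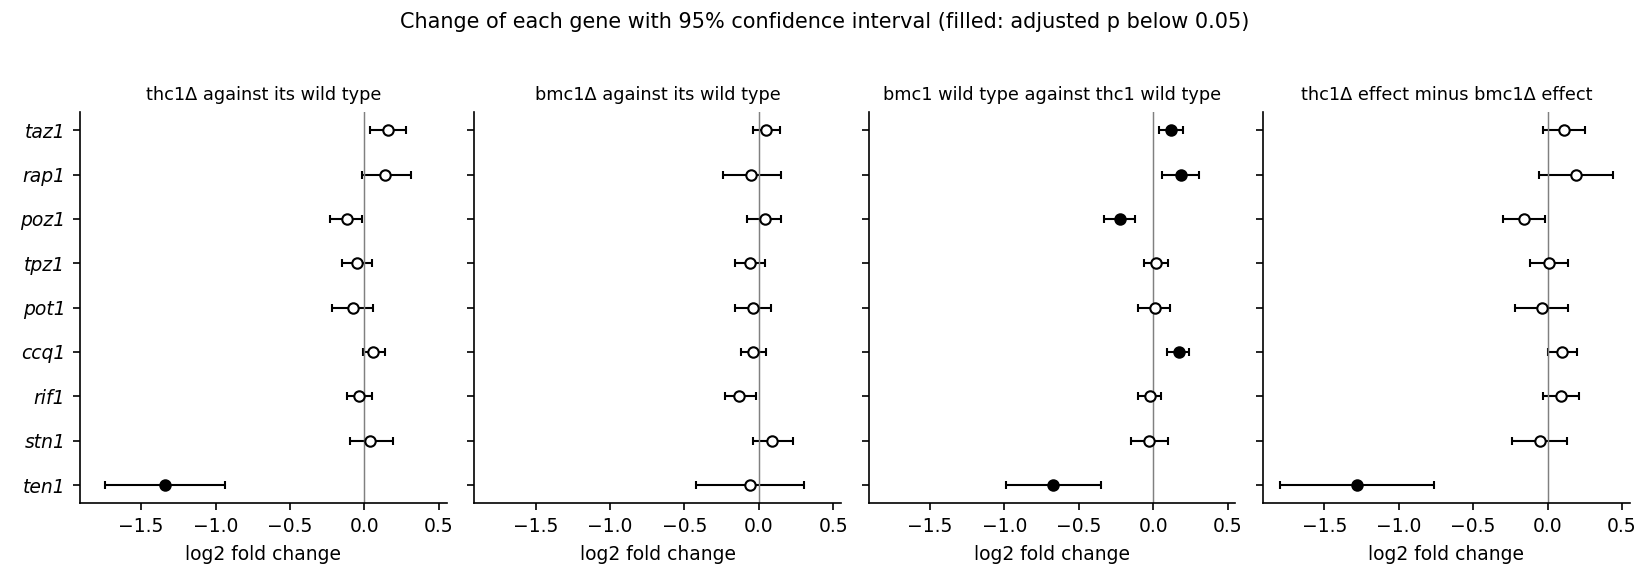
Log2 fold change of each member with its 95% confidence interval from edgeR in 4 comparisons, filled where the adjusted *p* was below 0.05. *ten1* lies at -1.34 in *thc1*Δ, -0.06 in *bmc1*Δ and -0.67 between the wild types, and the other 8 genes lie between -0.22 and 0.19 in all 4 panels.

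The comparison of *thc1*Δ with its wild type and that of the wild types share the *thc1* wild-type libraries, so their values stand here side by side only. In *thc1*Δ and in the *bmc1* wild type, respectively, the log2 values against those libraries were 0.16 and 0.12 for *taz1*, 0.14 and 0.19 for *rap1*, 0.06 and 0.17 for *ccq1*, and -0.12 and -0.22 for *poz1*. For *ten1* they were -1.34 and -0.67. The difference between the effects of the 2 deletions passed for 1 of 9 members, *ten1*, where 10.4% of 6279 genes passed and 0.987% also reached 2-fold. Without *thc1*Δ replicate 1 it passed for 2, the other being *taz1* (0.16, adjusted *p* = 0.041).

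Around the members, 51 genes of 7 lists were counted whole. The telomerase list held TER1, its catalytic partner *trt1*, *est1*, *pof8*, *thc1* and *bmc1*. The RNA component TER1 (SPNCRNA.214) stood at 155 ± 4.21 CPM in the *thc1* wild type and 54.6 ± 3.97 CPM in *thc1*Δ, and at 151 ± 6.56 CPM in the *bmc1* wild type and 84.0 ± 2.33 CPM in *bmc1*Δ (SD, n = 3). *trt1*, the reverse transcriptase, stood at 94.1 and 97.3 CPM in the *thc1* pair and at 92.3 and 90.9 CPM in the *bmc1* pair and did not pass in either.

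In *thc1*Δ 4 of the 51 genes passed, or 7.84%, where 21.1% of all genes did. TER1 (-1.51) and *thc1* (-1.30) fell, and *nbs1* (0.20 ± 0.0474, adjusted *p* = 0.0241), of the complex that processes chromosome ends, and *clr2* (0.38 ± 0.0873, adjusted *p* = 0.0194), of a silencing complex, rose. Levels of *clr2* were 46.6 ± 1.96 CPM in the *thc1* wild type, 61.0 ± 8.46 in *thc1*Δ, 62.5 ± 1.21 in the *bmc1* wild type and 60.9 ± 1.06 in *bmc1*Δ. Both *nbs1* and *clr2* missed the threshold without any 1 of the *thc1* wild-type libraries and against the *bmc1* wild type, and 16 of the 51 passed without *thc1*Δ replicate 1, or 31.4% beside 40.9% of all genes. In the fit of all 6 libraries none of the 10 nuclear envelope and bouquet genes passed, nor any of the 7 genes of single-strand binding and lagging-strand synthesis, the 4 partners of Rif1 at origins or the 4 genes of the SUMO pathway. In *bmc1*Δ 2 of 51 passed, TER1 (-0.85) and *bmc1* (-0.70), or 3.92%, where 0.0481% of all genes did. Both were listed with the outcome known, since *bmc1* is the deleted gene and the study reported less TER1 in both deletions. The same holds for *thc1* and TER1 in *thc1*Δ, so these shares are no result about the lists. With the replicate block 3 passed in *bmc1*Δ, the third being *tel1*, where 3.21% of all genes did. *bmc1* missed the threshold without *bmc1* wild-type replicate 2 or 3 or without *bmc1*Δ replicate 3.

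Between the wild types 17 of the 51 passed, or 33.3%, where 41.4% of all genes did. There were 15 higher and 2 lower in the *bmc1* wild type, where 22.2% of all genes were higher and 19.3% lower. Without *thc1* wild-type replicate 1 or replicate 2, 7 of the 51 passed. The count over all genes also reached lower values with a library left out, as given in the closing section. The counts of the single lists are given as descriptions, with no test of a list. In the list of checkpoint kinases and end processing 7 of 12 were higher, led by *nbs1* (0.31), *rad50* (0.28) and the kinase *tel1* (0.20). In the silencing list 4 of 8 were higher, led by *clr2* (0.43), the histone methyltransferase *clr4* (0.22) and *mit1* (0.18). Of the nuclear envelope list, 3 of 10 were higher, among them *bqt4* (0.36), which tethers telomeres to the envelope through Rap1. The SUMO ligase *pli1* (0.15) was higher, and *ssb2* (-0.09), a subunit of the single-strand binding protein RPA, and *hsk1* (-0.16), the kinase that fires origins, were lower.

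The likeness of patterns was measured as the root mean square difference of log2 CPM, centred for each gene, over 12 libraries and 6279 genes. The gene nearest to *rif1* was *rbm10* (0.0147), and that nearest to *pot1* was *top2* (0.0269). For *tpz1* it was *ppk29* (0.0252), for *ccq1* *nab2* (0.0275), for *poz1* *mrp17* (0.0281), for *taz1* *uba3* (0.031), for *stn1* *rpt2* (0.0379) and for *rap1* *dbl2* (0.0495). The gene nearest to *ten1*, SPNCRNA.1125, was 0.203 away, a distance that includes the counting error of *ten1*, which was 9.39% to 15.2% of the mean by group. Within the 9, *tpz1* and *pot1* were nearest to each other (0.0523), and *ccq1* and *taz1* were nearest to each other too (0.0669). The spreads of these genes around their own means were 0.0471 for *tpz1*, 0.0698 for *pot1*, 0.0658 for *ccq1* and 0.0799 for *taz1*. The distances therefore reflect small spread as well as likeness of pattern. The spread of *ten1* itself, 0.399, exceeded that of 95.7% of genes, and that of *rap1*, the next widest member, exceeded that of 51.6%. A value of 0.5 was added to each CPM before taking logs, so the spread of *ten1* is understated. The distances of *ten1* rest on the same narrowed values.

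Several members overlap genes on the other strand, where reads could be shared if strand was not used in counting. *pot1* shares 945 nt, 31.4% of its exons, with SPAC26H5.07c, and *tpz1* shares 748 nt, 24.0%, with *ypt5*. At 157 non-coding RNAs that lie wholly within a coding gene on the other strand, the median was 53.6 reads per kilobase against 1148.3 for the host genes. Among the 40 most abundant hosts these medians were 40.5 and 3208.1, so that the counts kept the strands largely apart at these loci. A small carry-over from the host strand was not tested.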

How the data were processed

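Total RNA of 12 *S. pombe* libraries, grown as cultures of 250 ml at 32 °C, was depleted of ribosomal RNA and sequenced from stranded libraries. Per the submitters' processing notes, reads were aligned to ASM294v2 with STAR 2.5.2b, and DESeq2 1.22.2 was used. The deposited values are raw read counts of 7004 genes made by the authors. The sources used here name no counting tool or annotation and do not say whether strand was used. Names, lengths and coordinates came from the RefSeq annotation of ASM294v3 (6846 genes matched by locus tag, 15 by synonym), a different build from that of the counts. Reads of ribosomal RNA left by depletion are part of the totals.

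Counts were tested with edgeR 4.0.16 in R 4.3.3 (quasi-likelihood, TMM, filterByExpr with a minimum count of 10) on the 6 libraries of a comparison, or on all 12 for the difference of effects, with Benjamini-Hochberg adjustment over all genes tested. The thresholds were an adjusted *p* of 0.05 and a 2-fold change, after the study's methods. All 9 members passed the filter in every comparison. Alternatives were DESeq2 1.42.0, limma 3.58.1 (voom), other scalings and filters, other controls, a fit over 12 libraries, the replicate block, and each library left out. Likeness used log2 CPM with 0.5 added to each CPM, which narrows the spread of genes at low CPM such as *ten1*. Same-numbered *bmc1* libraries deviated together (r = 0.557, 0.366 and 0.299), while same-numbered *thc1* libraries did not (0.0366, -0.0274 and -0.0508). Replicates 2 and 3 of the *bmc1* groups also deviated together across numbers (0.203 and 0.268). Whether the numbers pair the *bmc1* libraries is therefore not settled. Samples were grouped by their labels. The study describes its *thc1* libraries as triplicate cultures. For the *bmc1* libraries the sources used here do not say so, and *p* values there measure only the spread between libraries. The named genes were all members, list genes past the threshold (at most 3 per list), the nearest gene by pattern and the overlapping or adjacent genes. Members and lists were chosen with earlier results of these data known. The *thc1* fit was also run on simulated counts with the same dispersion for every gene and no library set apart. That setting does not cover data in which replicate 1 of *thc1*Δ stood apart. Figures were drawn with matplotlib 3.10.9.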

Additional observations from a re-analysis of the deposited data

Results flagged for a closer look

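The effect of *thc1* deletion on *ten1* differed from that of *bmc1* deletion by -1.28 on the log2 scale (95% interval -1.80 to -0.76, adjusted *p* = 0.00653 by edgeR over all 12 libraries), which is what brought it here. All 3 *thc1*Δ libraries were below the 3 *thc1* wild-type libraries, while *bmc1*Δ and its wild type overlapped. With each of the 12 libraries left out in turn the difference lay between -1.41 and -1.12 and its adjusted *p* between 0.00444 and 0.0222. Leaving out single libraries does not test the level of the *thc1* wild type as a group. Against that group the *bmc1* wild type (log2 difference -0.67) and *bmc1*Δ (-0.73) were lower in *ten1* too. Against the *bmc1* wild type, *thc1*Δ missed the threshold (-0.67, adjusted *p* = 0.0551 by edgeR). With 3 libraries a group, no test for a single outlying value of a gene was made.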

How the results depend on the processing

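Of 603 values of members under alternatives, 563 kept their direction and their side of the threshold, 12 lost the threshold, 9 gained it and 19 changed sign. *ten1* in *thc1*Δ kept its call under every alternative but the *bmc1* wild type as control. The causes of the changes were not tested. Members called in *thc1*Δ numbered 2 in the fit over all 12 libraries, 0 with the *bmc1* wild type as control and 1 to 5 with a library left out, and genes numbered 844 with that control and 578 to 2562 with a library left out. In *bmc1*Δ genes called numbered 28 by DESeq2, 200 with the replicate block and 1 to 4 with a library left out (members 0 throughout), and 2379 with 5 members against the *thc1* wild type. Between the wild types members numbered 3 in the fit over 12 libraries and 3 to 5 with a library left out, and genes 1582 to 2824. For the difference of effects genes numbered 1085 with the replicate block and 328 to 917 with a library left out, and members 1 to 2. The block lost *taz1* between the wild types (0.12, adjusted *p* = 0.054) and changed no other member's call.

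Changes of sign occurred with the *bmc1* wild type as control in *thc1*Δ for *rap1* (-0.0448), *ccq1* (-0.103) and *poz1* (0.0963), and with the *thc1* wild type as control in *bmc1*Δ for *rap1* (0.141), *ccq1* (0.13) and *poz1* (-0.182). With libraries left out, ranges crossed 0 in *bmc1*Δ for *rap1* (-0.10 to 0.0193), *pot1* (-0.0671 to 0.0021) and *ten1* (-0.16 to 0.0224), between the wild types for *pot1* (-0.0307 to 0.0256), and in the difference of effects for *pot1* (-0.10 to 0.0126) and *tpz1* (-0.0127 to 0.05). Scaling by library totals alone gave -0.0166 for *tpz1* in the difference. At 33 to 127 reads a library, the depth limits *ten1*, whose interval in *bmc1*Δ allows 74.6% to 123% of the wild type.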
